A study of Mus musculus with 13 samples.

Results

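The insertions described here are those of a Sleeping Beauty transposon on mouse chromosome 18 in a pool of F123 embryonic stem cells whose transposons were mobilized from transfected plasmids (the plasmid pool). The sites were chosen by position alone: all deposited positions of that library on chromosome 18, with neighbouring positions up to 10 bp apart joined to 1 site whatever their strand. This gave 1331 sites from 1342 positions, out of 31146 sites in the whole library. Chromosome 18 itself was picked with its site density already known to be high. Its density in the plasmid pool is therefore given as a description without a test, whereas gene context, strand and reads per site were tested against chromosomes 10, 12, 14, 16 and 17 of the same library.

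Sleeping Beauty moves by being cut out of one place and pasted into another at a TA dinucleotide, and it is known for a weak preference among genes and chromosomes. When it leaves a chromosomal donor it often lands on the chromosome it left, whereas transposons leaving a plasmid have no such home. Copies delivered on plasmids thus serve as a reference for where the transposon lands without a chromosomal starting point. Mouse chromosomes have their centromere at the low-coordinate end, so positions count away from it.

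F123 is a Cast x 129 hybrid line, grown in serum-free medium with 2 kinase inhibitors and LIF. All libraries were made by transcribing purified genomic DNA with T7 RNA polymerase from a promoter inside the transposon, so that reads crossing the transposon end mark the first genomic base. The groups used here are the plasmid pool, which the series calls a positive control with multi-copy plasmids, the pool in which TRACK-IT transposons were remobilized by expressed Sleeping Beauty (the remobilized pool), and a control without transposons, all labelled wild type and from the same sequencing run. A further 9 clonal lines of Rad21-dTag genotype came from another run. Each group is 1 library with no replicate, so that the tests compare sets of sites and not conditions, and intervals cover counting error only.

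The plasmid pool held 78338 reads, of which 63031 had a genomic position, and 2780 of these lay on chromosome 18. The remobilized pool held 2619 reads and had 14 sites on chromosome 18. The control held 1 read, which had no position. The 9 clones held 57 sites, of which 0 were on chromosome 18, which allows a share of up to 5.26% (3 counts of 57). Coordinates are those of mm10, the build in the submitters' processing notes, annotated with GENCODE M21 of GRCm38.

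Chromosome 18 carried more insertions per length than any other autosome. It had 15.2 sites per Mb over a span of 87.6 Mb, against 11.7 on chromosome 10, 12.2 on chromosome 12, 12.6 on chromosome 14, 12.3 on chromosome 16 and 12.0 on chromosome 17. The mean of these 5 was 12.2 ± 0.336 sites per Mb (SD over 5 chromosomes of 1 library). The density on chromosome 18 was 1.25 times that of the 5 together. Over all 18 other autosomes the density ran from 10.9 on the sparsest to 13.7 on chromosome 9.

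**Figure D1:**
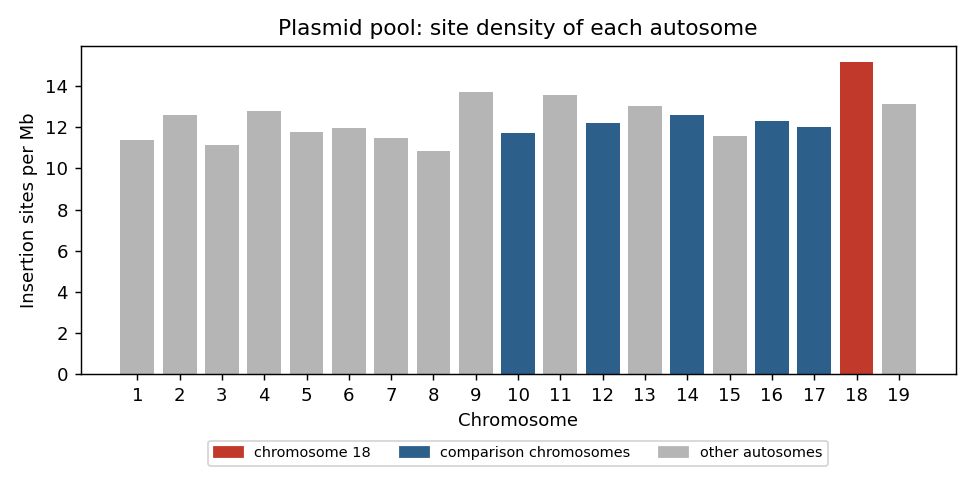
Sites per Mb of the plasmid pool on each of the 19 autosomes, with 1 bar per chromosome and no replicate. Chromosome 18 (red) stands at 15.2, the 5 comparison chromosomes (blue) between 11.7 and 12.6, and the highest of the others, chromosome 9, at 13.7.

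The higher density was seen at every level of support. These counts reuse the sites whose density chose the chromosome, so they are no separate support for it. Counting only sites with at least 2 reads, chromosome 18 had 8.37 sites per Mb and the comparison chromosomes 6.20 to 6.92. At a minimum of 5 reads it had 0.982, against 0.658 to 0.768. By reads instead of sites, chromosome 18 had 31.7 reads per Mb and the comparison chromosomes 24.0 to 25.3. It ranked first of 19 autosomes in each of these measures.

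Chromosome 18 had no pile-up of sites like that of chromosome 9, the next densest autosome. A single 1 Mb window of chromosome 9 held 171 sites, whereas the fullest of the 87 windows of chromosome 18 held 27, within the 23 to 29 of the comparison chromosomes. With positions within 1 kb joined, chromosome 18 had 14.8 sites per Mb, and the next autosome, chromosome 11, had 13.1. Without the densest 1 Mb window of each chromosome it had 15.1, again above chromosome 11 with 13.4.

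The excess was spread over most of the chromosome. The median 1 Mb window held 15 sites on chromosome 18 and 11 or 12 on the 5 comparison chromosomes. Of the 87 windows, 61 (70.1%) held more than 12 sites, the median over the windows of the comparison chromosomes. On those chromosomes the same was true of 40% to 46.2% of windows. Windows with 20 or more sites made up 18.4% on chromosome 18 and 3.15% to 9.92% on the others. The variance of the window counts was 1.61 times their mean, inside the range of 1.26 to 1.81 on the comparison chromosomes.

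**Figure D2:**
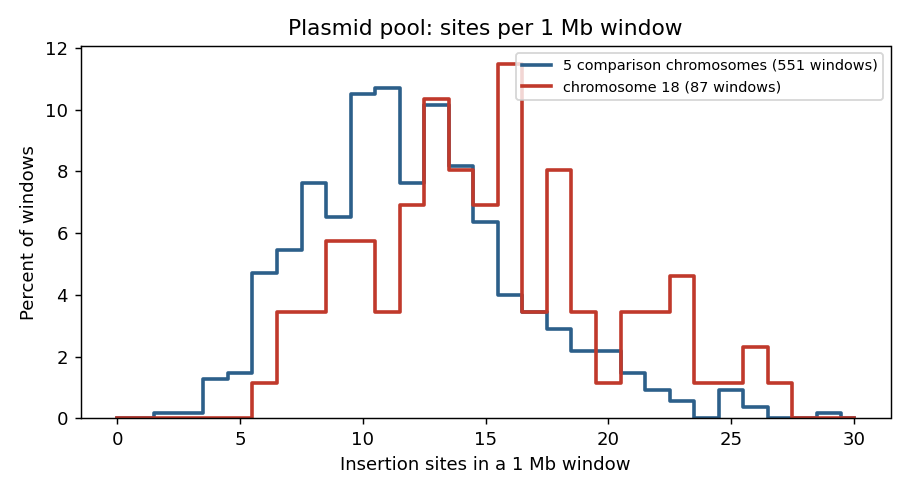
Percent of 1 Mb windows that hold a given number of plasmid pool sites, for the 87 windows of chromosome 18 (red) and the 551 windows of the 5 comparison chromosomes (blue). The red curve lies to the right, with a median of 15 sites against 12, and its highest window has 27.

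Neighbouring sites of chromosome 18 were a median of 43.2 kb apart, against 51.4 to 57.7 kb on the comparison chromosomes. The ratio of the median to the mean distance was 0.656, within the range of 0.627 to 0.692 of the 5. The longest stretch without a site measured 665.9 kb, from 28513396 to 29179256, and held no protein-coding gene. The next, 498.9 kb from 78525720 to 79024650, held part of Slc14a2, a urea transporter gene, and most of Setbp1, a DNA-binding nuclear protein gene. The third measured 399.2 kb, from 81260218 to 81659432, and held no protein-coding gene.

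Cut into 10 equal segments, the span of chromosome 18 was densest next to the centromere, with 20.3 sites per Mb in segment 1 (178 sites). The comparison chromosomes had 12.6 to 15.4 there. In 7 of 10 segments chromosome 18 was above all 5. The exceptions were segment 2, with 13.4 against 11.2 to 16.3, segment 6, where chromosome 12 was higher with 14.4, and segment 9, with 12.3 against 10.6 to 12.4. Without segment 1 of every chromosome the ratio to the 5 comparison chromosomes was 1.22, an alternative chosen after the data were seen.

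**Figure D3:**
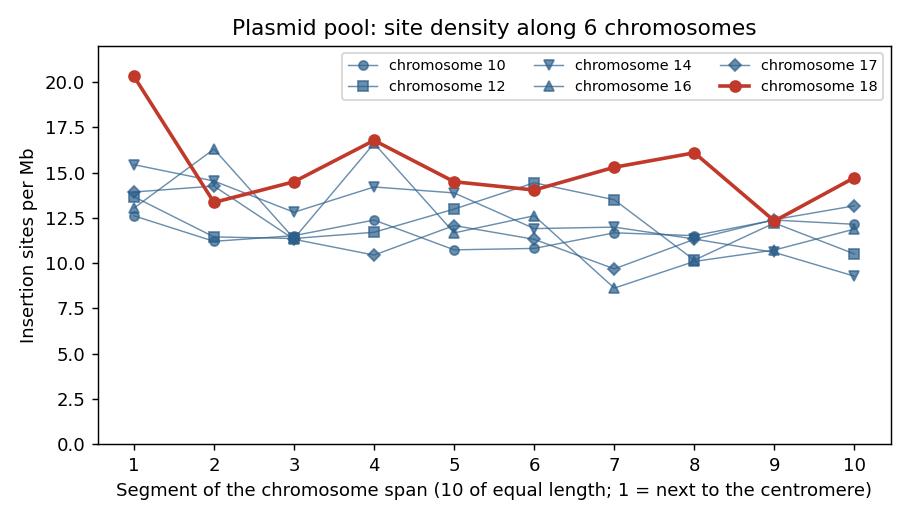
Plasmid pool sites per Mb in each of 10 equal segments of the span of chromosome 18 (red) and of the 5 comparison chromosomes (blue), with segment 1 next to the centromere. Chromosome 18 is at 20.3 in segment 1 and between 12.3 and 16.8 in the others, above all 5 comparison chromosomes in 7 of 10 segments.

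The 3 densest windows held 7 or more protein-coding genes each, whereas the 4 with the fewest sites differed in gene content. The window from 34000001 to 35000000 held 27 sites and 21 protein-coding genes, among them the tumour suppressor Apc, the growth factor gene Wnt8a, the histone demethylase Kdm3b and the immediate early gene Egr1. The window from 20000001 to 21000000 held 26 sites, of which 7 were on the plus strand, and contains the desmosomal cadherin cluster from Dsc2 to Dsg2, a small part of Dsc3 and the transthyretin gene Ttr. The window from 56000001 to 57000000 also held 26 sites, with 7 protein-coding genes that include Lmnb1, the gene of lamin B1. At the low end, the window from 85000001 to 86000000 held 6 sites, and those starting at 27000001, 28000001 and 78000001 held 7 each. The first 3 of these contain no protein-coding gene, but the window from 78000001 to 79000000 has 6, among them Epg5, Slc14a2 and Setbp1, and genes cover 79.1% of it. Over the 87 windows, which share 1 library and its depth, Spearman's rho between the number of sites and the percent of bases in genes was 0.176, and on the comparison chromosomes it ran from 0.122 to 0.328.

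Fewer sites of chromosome 18 lay inside genes than between them. Of its sites, 647 of 1331 lay inside genes, or 48.6% (95% exact Clopper-Pearson interval 45.9 to 51.3), against 51.8% (50.6 to 53.0) of 6726 sites on the comparison chromosomes. The difference of -3.19 percentage points did not pass the threshold of 0.05 (two-sided Fisher's exact test on sites, p 0.0356, Benjamini-Hochberg adjusted over 8 tests 0.117). Genes cover 45.5% of the bases of the span of chromosome 18 and 43.5% to 50.7% on the comparison chromosomes. The share of sites was 1.07 times the share of bases on chromosome 18 and 1.04 to 1.14 times on the others. With genes extended by 5 kb on each side the shares were 56.9% and 62.5%, and this difference of -5.58 points passed (Fisher's exact test, adjusted p 0.000589). The bases within the extended genes also make up less of chromosome 18, 54.1% against 58.1%. The difference of -4.10 points against all other autosomes passed too (Fisher's exact test, adjusted p 0.0139), and genes cover 48.5% of their bases against the 45.5% of chromosome 18.

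A smaller share of sites lay near promoters on chromosome 18. Within 5 kb of the start of a protein-coding gene lay 59 of its 1331 sites, or 4.43% (3.39 to 5.68), against 521 of 6726, or 7.75% (7.12 to 8.41). This difference of -3.31 points passed the threshold (odds ratio 0.552, Fisher's exact test, two-sided p 9.39e-06, adjusted p 7.51e-05). The test pools chromosomes whose own shares ran from 5.53% to 9.39%. Its p-value covers neither that spread nor the share of bases near starts. The bases within that distance make up 5.32% of the chromosome 18 span, a value inside the interval of the site share, and 4.93% to 9.87% on the comparison chromosomes. The share of sites was 0.834 times the share of bases on chromosome 18, 0.910 to 1.39 times on the comparison chromosomes and at least 0.892 times on all 18 other autosomes. Taken one at a time, which was added after the data were seen, the comparison passed against chromosomes 10, 14, 16 and 17, with adjusted p between 1.42e-06 and 0.0111, and did not pass against chromosome 12, where the share was 5.53% (Fisher's exact test, adjusted p 0.382).

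Exons held 67 sites, or 5.03% (3.92 to 6.35), against 4.36% (3.88 to 4.87) on the comparison chromosomes, a difference of 0.678 points (Fisher's exact test, adjusted p 0.442). Exons cover 3.98% of the bases of the chromosome 18 span, a value inside the interval of the site share. That share of bases is the lowest of the 19 autosomes, and on the comparison chromosomes it is 4.03% to 6.10%. The share of sites was 1.26 times the share of bases on chromosome 18 and 0.839 to 1.05 times on the comparison chromosomes, the opposite order to that near promoters. Of all 18 other autosomes, 1 had a higher ratio. By the first matching class, 17 sites of chromosome 18 lay in coding exons, 20 in untranslated regions, 30 in exons of noncoding transcripts, 580 in introns only and 684 between genes. Protein-coding genes held 554 sites (41.6%), and 93 (6.99%) lay in other genes only. Sites between genes were a median of 20.8 kb from the nearest gene, and 72 were over 100 kb away, the farthest at 418.0 kb.

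Over chromosome 18 as a whole, neither strand was preferred beyond the counting error. The plus strand held 644 of 1331 sites, or 48.4% (45.7 to 51.1), against 51.2% (50.0 to 52.5) on the comparison chromosomes, a difference of -2.86 points (Fisher's exact test, p 0.0587, adjusted p 0.117). Along the 10 segments of chromosome 18 the plus share ranged from 40.2% to 57.7%. It was 43.3%, 42.7%, 40.2% and 43.5% in segments 1, 2, 3 and 9, and above 50% in segments 4, 6, 7 and 10. The plus strand held 267 of the 598 sites with 1 read, and 51.4% of those with at least 2. Whether the share differs between segments or read counts was not tested. Within genes annotated on 1 strand only, 306 of 623 sites lay on the strand of the gene, or 49.1% (45.1 to 53.1), against 50.0% (48.3 to 51.8) on the comparison chromosomes (Fisher's exact test, adjusted p 0.694). With at least 5 reads the shares were 40% of 40 sites and 53.3% of 212, a difference of -13.3 points that did not pass either (Fisher's exact test, adjusted p 0.268).

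The bases at the sites were read from annotated transcripts, which covers sites flanked within their exon by 8 or more bases. Of 65 such sites on chromosome 18, the A of a TA stood at the deposited position in 49, or 75.4% (63.1 to 85.2), and within 2 bp in 63, or 96.9% (89.3 to 99.6). On the comparison chromosomes the shares were 70.6% (65.0 to 75.8) and 93.7% (90.2 to 96.2) of 286 sites. On chromosome 18 the fixed offset fitted 75.7% of 37 plus-strand sites and 75.0% of 28 minus-strand sites.

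Over the whole chromosome, reads per site were as low on chromosome 18 as elsewhere. The mean was 2.09 ± 1.64 reads per site (SD over 1331 sites), with a median of 2, against 2.03 ± 1.72 over the comparison chromosomes. Sites with 1 read numbered 598 (44.9%), those with 2 reads 447 (33.6%), with 3 reads 105 (7.89%) and with 4 reads 95 (7.14%). The step from 2 to 3 reads was thus much steeper than that from 3 to 4, and the sources used here do not say if mates of a pair were counted singly. At least 2 reads supported 733 sites, or 55.1% (52.4 to 57.8), against 53.6% (52.4 to 54.8) on the comparison chromosomes, a difference of 1.47 points (Fisher's exact test, adjusted p 0.448). Along the 10 segments of chromosome 18 this share ranged from 42.6% in segment 9 to 70.1% in segment 5, a spread that was not tested. The 86 sites with 5 or more reads held 21.3% of the chromosome 18 reads, nearly as much as the 598 sites with 1 read, which held 21.5%. Sites inside genes made up 47.2% of those with 1 read, 49.9% of those with 2 to 4 reads and 48.8% (37.9 to 59.9) of those with 5 or more.

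**Figure D4:**
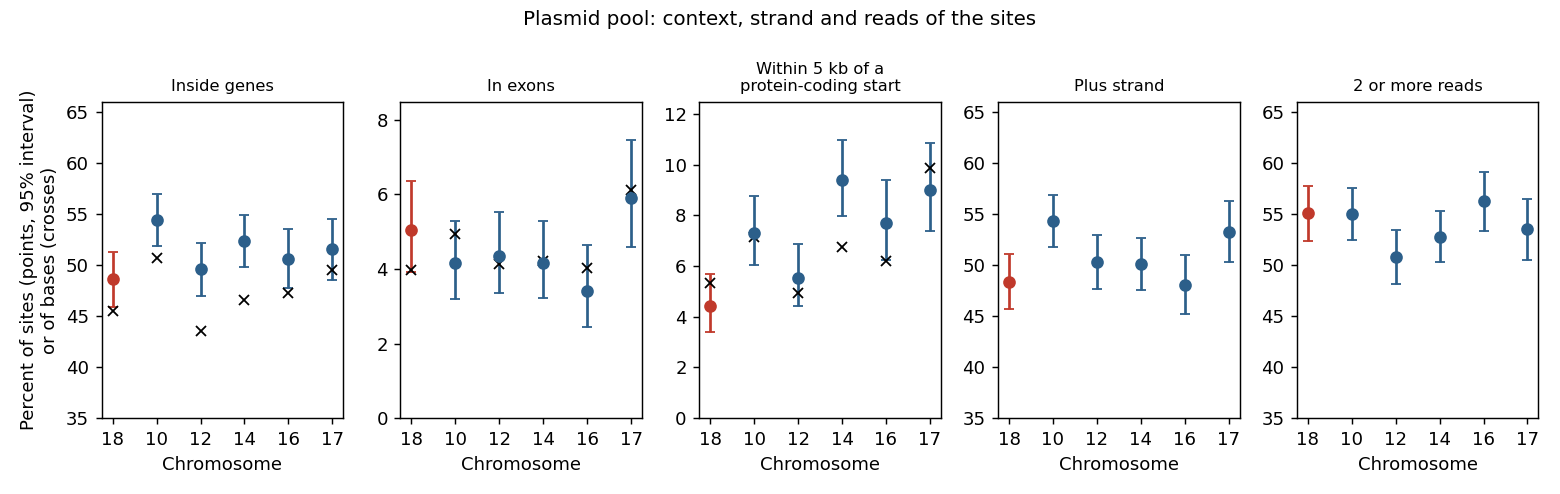
Percent of plasmid pool sites inside genes, in exons, within 5 kb of a protein-coding start, on the plus strand and with 2 or more reads, for chromosome 18 (red) and each comparison chromosome (blue), with 95% exact intervals; crosses give the percent of bases, and the axes for genes, strand and reads do not start at 0. The share near protein-coding starts on chromosome 18, 4.43%, is the lowest of the 6.

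The best-supported site of chromosome 18 lay at 90522313 on the minus strand, in an intron of Tmx3, a thioredoxin-related protein of the endoplasmic reticulum, with 18 reads. The next were at 20462858 in an intron of the desmoglein gene Dsg4 (14 reads) and at 59416632 in an intron of the chondroitin synthase gene Chsy3 (13 reads). The site at 20912801, 16.7 kb from the trafficking gene Trappc8, had 12 reads. Sites with 11 reads lay at 63268176 in an intron of Piezo2, a mechanically gated channel, and at 3005852, 6315704 and 58397410 between genes. The site at 3005852, close to the start of the assembled chromosome, joined 4 positions, the most of any site, and 9 of the 1331 sites joined 2 or more. Introns of Ccdc178 (21873982) and Prelid2 (41890749) held sites with 10 reads each. In all, 10 sites reached 10 reads, 6 of them inside genes.

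Genes with many sites were long genes. The 20 genes with the most sites held 6 to 21 each, and 19 of them were over 100 kb long. All 20 had sites on both strands. Over the 513 protein-coding genes of the chromosome, Spearman's rho between length and number of sites was 0.745, and genes that overlap share sites. Dcc, a netrin receptor that guides axons, is 1097 kb long and had 21 sites with 47 reads, all in introns, 12 on its own strand and 9 on the other. Its sites had 1 to 6 reads and a density of 19.1 per Mb. The models Gm42416, Gm37013 and Gm37388 each held the same 19 sites with 38 reads, as they overlap across the protocadherin locus.

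**Figure D5:**
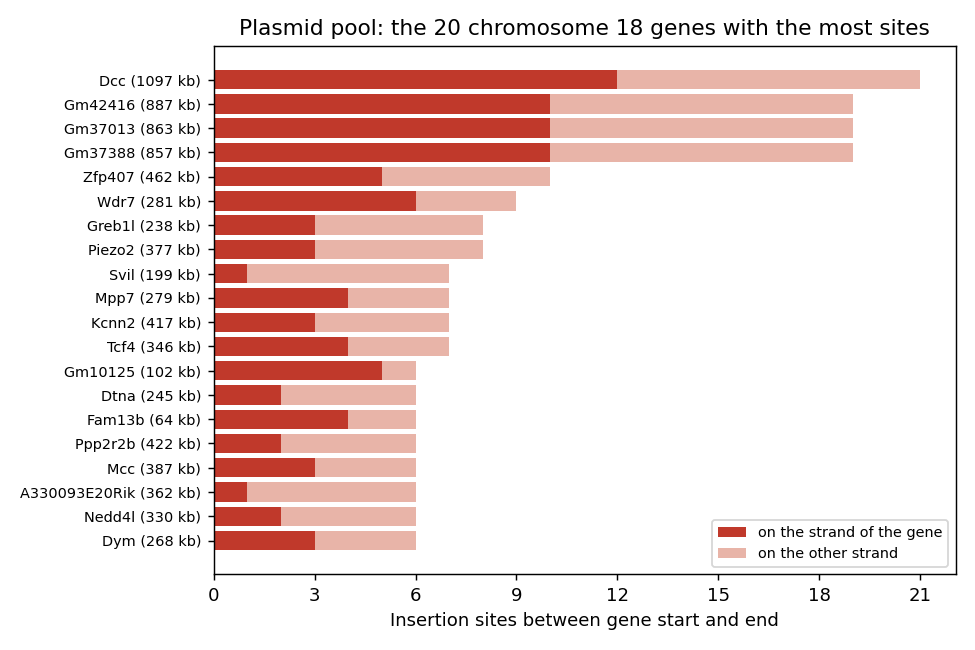
Plasmid pool sites between the start and end of the 20 chromosome 18 genes with the most sites, split by whether the site is on the strand of the gene (dark) or on the other (light), with gene length in kb beside the name. Dcc has 21 sites (12 and 9), and the shortest gene, Fam13b, has 6.

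Several other genes of this group stood above the chromosome mean of 15.2 sites per Mb. The group was picked by number of sites, so densities above the mean are in part set by that choice. Zfp407, a zinc finger protein gene of 461.7 kb, had 10 sites, 5 on each strand. Wdr7, a WD repeat protein gene, had 9 sites in 281.1 kb (32.0 per Mb), 6 of them on its own strand. Greb1l had 8 sites in 237.8 kb and Piezo2 8 in 377.0 kb, of which 7 were in introns. Svil, which encodes the actin-binding supervillin, had 7 sites in 198.8 kb, 6 of them on the other strand. The junction scaffold gene Mpp7, the potassium channel gene Kcnn2 and the transcription factor gene Tcf4 had 7 sites each, in 278.9, 417.2 and 345.7 kb.

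The genes with 6 sites ranged widely in length. Fam13b, the shortest of the 20 at 64.5 kb, had 93.1 sites per Mb, and 3 of its sites lay at 34483175, 34483249 and 34483515 on the minus strand with 2 reads each. With positions within 1 kb joined, these 3 become 1 site. Those at 34452776 and 34453718 then join as well, so its density is lower under that setting. Gm10125, a noncoding transcript gene of 102.0 kb, had 58.8 per Mb, with 5 of 6 sites on its own strand. The ubiquitin ligase gene Nedd4l had 6 sites in 330.1 kb, the dystrobrevin gene Dtna 6 in 244.6 kb, the Golgi protein gene Dym 6 in 268.2 kb and the antisense gene A330093E20Rik 6 in 361.8 kb. At the low end, Ppp2r2b, a regulatory subunit of protein phosphatase 2A, had 14.2 per Mb, and Mcc, a gene mutated in colorectal cancers, had 15.5. Ties at 6 sites were settled by position, which left out 1 gene with as many.

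Chromosome 18 has 513 protein-coding genes, and 250 of them, 48.7%, had at least 1 site. On the comparison chromosomes the share was 23.2% to 39.8%. Genes are also longer on chromosome 18, with a median of 36.3 kb against 13.7 to 25.7 kb. Of its 129 genes over 100 kb, 121 had a site (93.8%), and the comparison chromosomes had 84.5% to 88.5%. These shares also depend on the site density, which was known when the chromosome was chosen, and no test was made of them.

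Gene groups of the chromosome were counted against the 48.7% of all protein-coding genes that had a site and the 16.6 sites per Mb that all of them covered together. The clustered protocadherins, adhesion molecules of which each neuron makes its own combination, had a site in 35 of 57 gene models, but only 10 distinct sites, since the models overlap. Of the 14 alpha models, 13 had a site, from 2 distinct sites at 37010310 and 37098447 with 6 reads each and on opposite strands. The 22 beta models, which are single short genes, had 4 sites in 4 models. The 21 gamma models had 4 sites over 18 models. The 10 sites gave 18.9 per Mb of covered sequence.

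Of the 9 genes of desmosomal cadherins, which link epithelial cells, 5 had at least 1 site. All 5 were desmoglein genes, while the desmocollin genes Dsc1, Dsc2 and Dsc3 and the desmoglein gene Dsg1c had 0. Dsg4 had 3 sites with 3, 3 and 14 reads, Dsg1a and Dsg1b had 2 each, and Dsg3 and Dsg2 had 1 each. Together these were 9 sites in 0.324 Mb, or 27.8 per Mb, a small number to set against the 16.6 of all protein-coding genes.

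Among lineage transcription factors, 10 of 15 genes had a site, with 32 sites in 1.90 Mb (16.8 per Mb). Gata6, a factor of primitive endoderm, had 3 intronic sites in 33.6 kb, at 11057950, 11073188 and 11074641, with 2 reads each. Zeb1, a repressor known from epithelial-mesenchymal transition, had 5 sites with 2 to 4 reads, Zfp521 had 4 with 1 to 7 reads and the glucocorticoid receptor gene Nr3c1 had 4 with 1 to 4 reads. Zfp532 and Tshz1 had 3 sites each. Setbp1 had 1 site in 359.0 kb, and Nfatc1 and Zfp236 had 1 each. Cdx1, Sall3, Onecut2, Pou4f3 and Zfp516 had 0.

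The chromatin and transcription regulators had a site in 7 of 14 genes, with 18 sites in 0.778 Mb (23.1 per Mb). Asxl3 had 5 sites in 185.3 kb, Epc1 had 4 in 80.2 kb, and Esco1, an acetyltransferase of cohesin, had 3, all on its own strand. The methyl-CpG binding protein gene Mbd2 had 3, while Mbd1, Cxxc1 and Hdac3 had 0 in genes of 15.1, 5.37 and 19.2 kb. The SMAD and TGF-beta group had a site in 1 of 5 genes: Smad2, a signal transducer of activin and nodal receptors, had 3 sites with 1 read each, all on the other strand, and Smad4 and Smad7 had 0. These 3 sites lay in 0.215 Mb of covered sequence, or 13.95 per Mb.

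The neuronal adhesion and guidance group had a site in 8 of 10 gene models, with 45 sites in 2.88 Mb (15.6 per Mb), of which 21 were in Dcc. Cdh2, the gene of N-cadherin, had 3, all on its own strand, and Nrg2, a neuregulin gene, had 3. The WNT and growth factor group had a site in 6 of 11 genes, with 18 sites in 1.24 Mb (14.5 per Mb). The laminin gene Lama3 had 4 sites in 249.2 kb, all on the other strand. Apc had 0 in 101.6 kb, although it lies in the densest window. The SPINK genes, small inhibitors of serine proteases, had a site in 2 of 9, Spink10 and Spink13, which have the longest models of the group, with 4 sites in 0.288 Mb (13.9 per Mb).

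The remobilized pool was not used to pick the chromosome and offers a second look at its density. On chromosome 18 it had 14 of its 483 autosomal sites off chromosome 6, or 2.90% (1.59 to 4.82). Chromosome 6, where the remobilized pool was densest with 1.66 sites per Mb, was left out. In the plasmid pool the share was 1331 of 27705, or 4.80% (4.56 to 5.06), and chromosome 18 makes up 3.88% of the span of these autosomes. The difference of -1.91 points is given without a test, since the share in the plasmid pool is the value that chose the chromosome. Chromosome 18 had 0.160 sites per Mb in the remobilized pool and the other autosomes 0.216, the reverse of the order in the plasmid pool, where they had 15.2 and 12.2. With 14 sites the interval holds both the share of the span and that of the plasmid pool.

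Inside genes lay 8 of the 14 sites of the remobilized pool, or 57.1% (28.9 to 82.3), against the 48.6% of the other library (Fisher's exact test, adjusted p 0.683). On the plus strand were 7 of 14, and 7 of 14 had at least 2 reads. The best supported were at 36317583, 16.1 kb from Igip, with 8 reads, at 36451865 in an intron of Pfdn1, a prefoldin subunit gene, with 7, at 81095658 in an intron of the lincRNA gene AC105065.1 with 5, at 35010167 in an intron of the noncoding gene AC131675.3 with 4 and at 20963094 in an intron of the ubiquitin ligase gene Rnf125 with 2. The sites at 38248909, in an intron of the lincRNA gene 1700086O06Rik, and at 69807120, between genes, also had 2 reads. The site near Igip was 40.4 kb from the nearest site of the plasmid pool and that in Pfdn1 61.3 kb.

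Of the 14 sites, 1 was shared with the plasmid pool within 10 bp. It was the site at 20912801 near Trappc8, at the same base and on the minus strand in both libraries, with 12 reads in the plasmid pool and 1 in the remobilized pool. It ranked 4 among the chromosome 18 sites of the plasmid pool by reads. The other 13 were at least 6.78 kb from the nearest plasmid pool site. Both libraries come from 1 sequencing run, and the part of carry-over between libraries in the shared site was not tested.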

How the data were processed

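The tables give, for each genomic base with reads, its strand and a read count. The counts deposited by the authors are whole numbers without normalization, as the values show, and 1 line per file holds reads without a position. FastQC, BWA and deepTools and the build mm10 are named, without role or order, per the submitters' processing notes. How duplicates were handled and what was filtered is not given in the sources used here. Without molecular identifiers, reads are not independent molecules, and sites with 1 read are the least certain.

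Positions within 10 bp were joined to 1 site at the base with most reads. The span ran from 3000001 to the end of the last GENCODE M21 gene. Tests of shares were Fisher's exact tests, two-sided and adjusted by Benjamini-Hochberg over 8 tests (the p-value for the chromosome 18 share of both pools is left out, since the chromosome was chosen on it), and intervals are 95% exact Clopper-Pearson (Python 3.11.15, SciPy 1.17.1). Neighbouring sites may not be independent, so p-values may be too small. The functions were tested on simulated data.

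Chromosome 18, the gene lists and the rule for named genes were chosen with earlier results of these data known. The rule named the 20 genes with the most sites, the 10 best-supported sites, genes of 8 lists, the 3 densest and 3 emptiest windows (a tied window was added after its values were seen), and the 5 best-supported and any shared sites of the remobilized pool. Lists were counted by GENCODE gene models, and 2 models can carry 1 symbol (Arhgap26, Pcdha11). The alternatives were other merging distances, minimum reads, gene sets, distances and comparison chromosomes. The parental line before remobilization was not used here.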

Additional observations from a re-analysis of the deposited data

How the results depend on the processing

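Of 67 alternative values, 55 kept their direction and their side of the threshold, or stayed within the limits set for values without a test. The 55 include all 5 alternatives of the chromosome 18 share of both pools. The test of that share is left out here, so these 5 are no sign of stability. The number of chromosome 18 sites was 733 with at least 2 reads and 86 with at least 5. The density ratio was 1.40 with at least 5 reads per site, and between 1.22 and 1.28 under the other 6 alternatives run. Chromosome 18 ranked first of 19 autosomes in density under each setting tried, but these settings reuse the sites whose density chose it. The deficit inside genes became a call against all other autosomes (-4.10 points) and with genes extended by 5 kb (-5.58 points), where the shares of bases were lower on chromosome 18 as well. The deficit near protein-coding starts was no longer past the threshold with at least 5 reads (-1.42 points, 86 sites on chromosome 18) or against chromosome 12 alone (-1.10 points), where the difference itself was smaller; the cause was not tested. Signs turned only in differences that passed no threshold: exons against all other autosomes (-0.0144 points), the plus strand with at least 5 reads (0.775 points), the gene strand against all other autosomes (0.208 points) and in protein-coding genes only (0.602 points), and the genic share of the remobilized against the plasmid pool in protein-coding genes only (-5.91 points). Density per TA dinucleotide was not run, since no genome sequence was used here. No paired analysis was possible because each group is 1 library. With 14 chromosome 18 sites in the remobilized pool and 86 of at least 5 reads in the plasmid pool, only large differences could pass there.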

Other observations

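The values below fall outside the rule for named genes and were picked after they were seen. The 17 sites in coding exons of chromosome 18 had 1 to 4 reads each. Among them were Kctd1, a gene of a BTB domain repressor, with a site of 4 reads at 14974282, Lama3 (1 read, 12516563), the sialyltransferase gene St8sia3 (1 read, 64271589), the heparan sulfate enzyme gene Ndst1 (3 reads, 60713127) and the autophagy gene Epg5 (3 reads, 77988274). Untranslated regions with a site included those of the Notch pathway ligase gene Mib1 (2 reads, 10813266), the collagen cross-linking enzyme gene Lox (1 read, 52517162) and the nuclear matrix gene Matr3 (4 reads, 35591539).

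The longest protein-coding genes of chromosome 18 without a site were Commd10 (275.5 kb), Megf10 (164.4 kb), Jakmip2 (156.4 kb), Gnal (138.6 kb) and Rnf165 (109.1 kb). Gnal encodes the G protein subunit of olfactory neurons and Megf10 an engulfment receptor.

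Distances up to 1 kb made up 2.41% of the distances between neighbouring sites on chromosome 18, against 2.01% to 3.00% on the comparison chromosomes and 11.6% on chromosome 9. The closest pair on chromosome 18 was 15 bp apart in Mocos, at 24690031 on the plus and 24690046 on the minus strand with 2 reads each. In Dcc, 2 sites with 1 read each lay 34 bp apart on the minus strand.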
